A study of Mus musculus with 2 samples.

Results

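Cytosolic ribosomal protein genes encode the protein parts of the large and the small subunit of the ribosome outside mitochondria. They were taken as all genes on the array whose name is Rpl or Rps followed by a number, with an optional letter or paralogue suffix, plus Rplp0, Rplp1, Rplp2 and Rpsa, without pseudogenes and the Rps6k kinases. This gave 84 of the 27339 genes on the array, 51 of the large and 33 of the small subunit, with 143 probes. RNA came from mouse lenses taken at postnatal day 1. In the CKO sample Msx2, which encodes a homeobox protein, had been deleted with Le-Cre, a transgene whose Cre recombinase is active in the lens, and the control sample was Msx2 wild type. Whether the wild-type mice had Le-Cre too, and how many mice were pooled per RNA, was not stated in the sources used. Each genotype had 1 one-colour array, both on the same slide and in the same scan, so no difference has a replicate check and no p-value is given.

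Ribosomal proteins coat and brace the ribosomal RNAs, which decode messenger RNA and join amino acids. Their messenger RNAs are among the most abundant in growing cells, and most of them start with a run of pyrimidines, the 5′ terminal oligopyrimidine (TOP) tract, which ties their translation to mTOR signalling. In the newborn lens, fibre cells make large amounts of crystallin and then lose their organelles, ribosomes included.

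Of the 41173 probes, 22702 (55.1%) were well above background in CKO and 22326 (54.2%) in wild type, with no saturated spot. The Msx2 probe read 371 ± 15.9 intensity units in wild type and 4.62 ± 1.77 in CKO (SD over 10 spots of 1 array), where none of its spots was well above background. All 15 lens fibre markers were well above background on both arrays, among them the crystallin Cryaa (263458 units in CKO and 296843 in wild type) and the water channel Mip (75526 and 96799). Their median log2 difference was -0.29, close to the -0.30 of the ribosomal protein genes. Of the 15, 14 were below 0, against 60.7% of all measured genes. At least 2-fold lower in CKO were 3, against 3.98% of all measured genes. They were Lgsn (2666 and 12293 units, -2.21), Birc7 (135 and 356, -1.41) and Dnase2b (3718 and 7867, -1.09). The part of the fibre marker differences in the ribosomal protein values was not tested. Markers of some other cell types differed between the samples. Of 17 macrophage markers 17 were well above background in CKO and 9 in wild type, and their summed signal was 9769 against 1393 units. Of 8 mesenchyme markers 7 and 4 were well above background, with sums of 11991 and 633 units, and of 12 vascular markers 12 and 11, with sums of 7494 and 2939. Red cell markers had similar sums, 9095 and 8973 units. The 8 lens epithelium markers had sums of 33134 and 60439 units. Their median difference was -0.03, and they ran from -1.23 (Clu) to 1.90 (Aqp1). The part of these other cells in the ribosomal protein values was not tested, and in whole lenses fewer cells of a type and less RNA per cell cannot be told apart.

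Signals below are Feature Extraction's background-corrected intensities, and a difference is the log2 signal in CKO minus that in wild type after subtracting each array's 75th percentile. Genes with a probe well above background on both arrays counted as measured, and the brightest such probe gave the value. This held for 82 of the 84 ribosomal protein genes and for 14220 genes in all. From the scanner software's error model, the difference of a single ribosomal protein gene had an error of 0.20 log2 units. This error was nearly the same for every measured member (0.2040 to 0.2047). It was not measured over replicates and does not include the spread between animals.

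Nearly all ribosomal protein genes read slightly lower in the CKO lens, with a narrow spread. Their median difference was -0.30, which is 1.23-fold lower in CKO, with quartiles of -0.43 and -0.18. The difference was below 0 in 77 of the 82 measured genes (93.9%), against 60.7% of all measured genes. The median of all measured genes was itself -0.12, so the ribosomal protein genes lay 0.18 log2 units below it, with 66 of 82 on that side. That last distance depended on the scaling: the member median minus that of all genes was 0.0098 after quantile normalization, 0.0045 in the authors' deposited table of log2 values, and -0.0043 after centring the difference along the signal range. The count below 0 was then 47, 52 and 42 of 82. In these settings the median of all genes was -0.049, -0.050 and 0. The share of all genes below 0 was not counted for them, and the 60.7% does not apply there. Quantile normalization and centring both level the bright end of the arrays, so neither can show a shift that bright genes share.

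The shift was below 2-fold in each of the 82 members measured on both arrays, while Rpl39l, detected in wild type alone, is described separately. None of the 82 was at least 2-fold higher, against 4.11% of all measured genes, and none at least 2-fold lower, against 3.98%. At 1.5-fold, none was higher, against 9.36%, and 3 were lower, against 14.7%. After quantile normalization, after centring and in the authors' deposited table no member passed 1.5-fold in either direction. With median scaling 15 and with spike-in scaling 38 were lower. These 2 scalings shift every gene alike: the median of all genes was -0.24 and -0.37, with the members at -0.18 relative to it in both. The share of all genes past 1.5-fold under them was not counted. The SD over members was 0.18, against 0.60 over all measured genes. Of the members 59 (72.0%) lay within 0.2 log2 units of their own median, while 5119 of the 14220 measured genes lay within 0.2 of theirs. The difference was smaller than the error model in 25 members, and the distance from the median of all genes in 41.

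**Figure D1:**
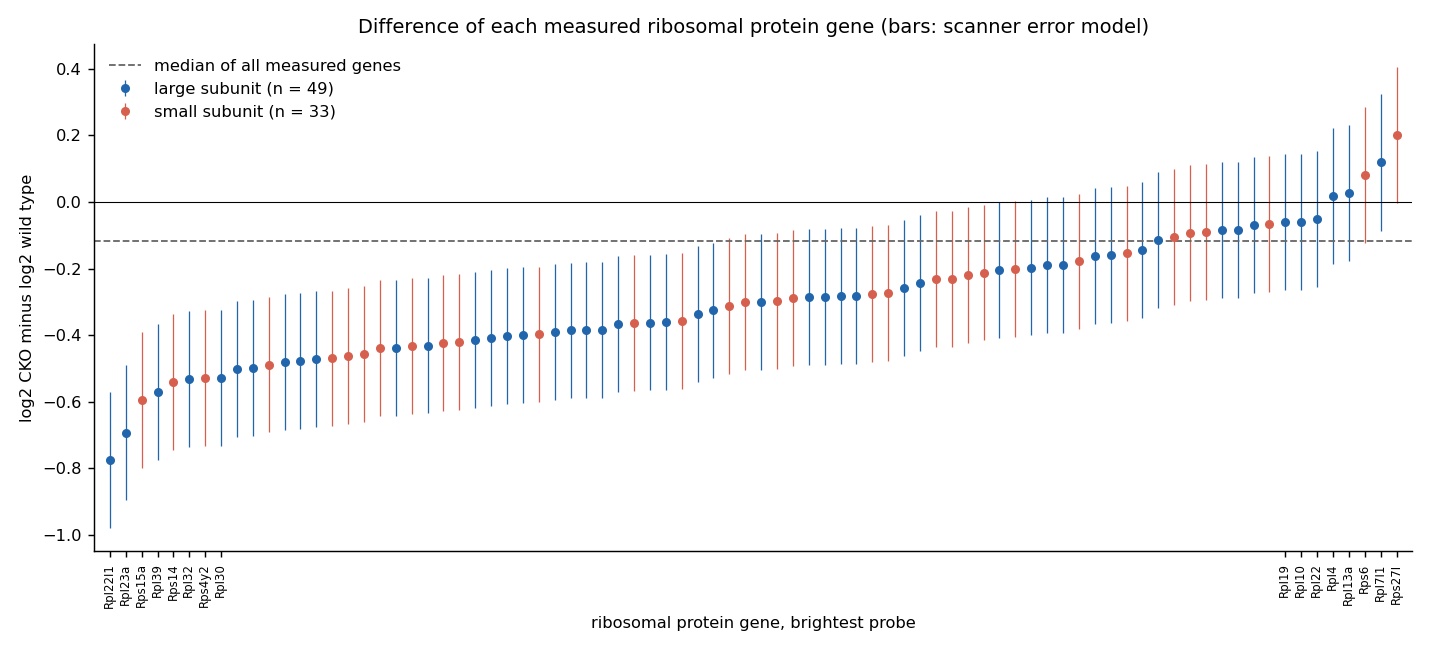
Log2 difference between CKO and wild type for each of the 82 measured ribosomal protein genes, ordered by size, with the scanner error model as bars and names at both ends of the order; colours mark the large and the small subunit and the dashed line the median of all measured genes. The genes run from -0.77 (Rpl22l1) to 0.20 (Rps27l), most of them between -0.43 and -0.18.

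Ribosomal protein genes are among the brightest on the array, and over all bright genes together the other genes had a similar median. In CKO the signals of the measured members ran from 447 (Rpl7l1) to 233564 units (Rpl41), and 75 of the 82 lay above the 95th percentile of all measured genes. Above a level that corresponds to 10735 units in CKO, which took in most of the members, the 73 ribosomal protein genes had a median difference of -0.30 and the 461 other genes one of -0.29. Among the 200 brightest genes, the 57 ribosomal protein genes had a median of -0.30 and the 143 others one of -0.32. Narrower bands of signal differed in both directions. Above a level of 88266 units in CKO the 21 ribosomal protein genes had a median of -0.30 and 39 other genes one of -0.19, and among the 100 brightest genes the medians were -0.34 for 38 members and -0.28 for 62 others. Between 56509 and 88266 units 20 members were at -0.33 and 25 others at -0.41, and between 25612 and 56509 units 20 members were at -0.26 and 126 others at -0.34. In the wide band from 429 to 25612 units 21 members were at -0.34 and 5412 others at -0.15. No test of these differences was possible. The members' spread was narrower, with an SD of 0.18 against 0.34 over the 461 other bright genes. Across the members the difference showed little relation to signal (Pearson's r = -0.21, Spearman's rho = -0.14 across 82 genes that share both arrays and are not independent replicates).

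The spike-in controls, foreign RNAs added to the labelling reactions, did not share the shift. The 8 spike-ins well above background on both arrays had a median difference of 0.25 and ranged from -0.01 to 0.35, each read from 32 spots. With the median of the spike-ins set to 0, the ribosomal protein median was -0.55 and that of all measured genes -0.37.

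**Figure D2:**
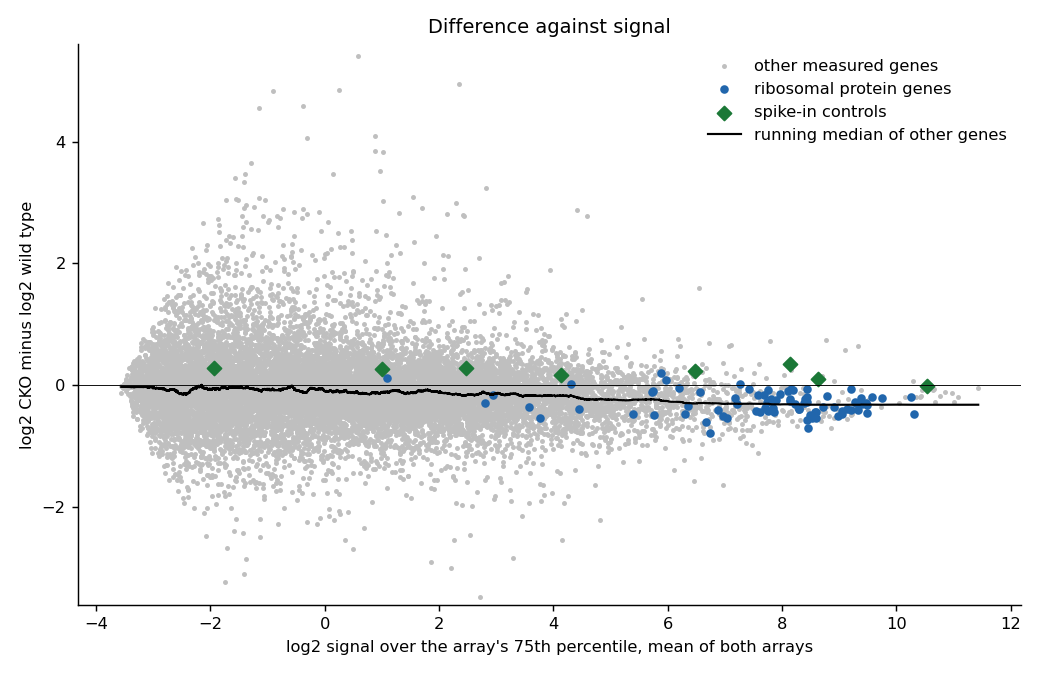
Log2 difference between CKO and wild type against log2 signal over the array's 75th percentile (mean of both arrays) for all measured genes (grey), ribosomal protein genes (blue) and spike-in controls (green), with the running median of the other genes as a line. Most ribosomal protein genes sit at the bright end, around the running median of the other genes there, and the spike-ins lie above it.

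The 2 subunits did not stand apart. The 49 measured large subunit genes had a median of -0.33 and the 33 small subunit genes one of -0.30. In the large subunit 46 of 49 and in the small subunit 31 of 33 differences were below 0, against 60.7% of all measured genes. The summed signal of the large subunit genes on the array was 2632059 units in CKO and 3246992 in wild type, and that of the small subunit genes 2171653 and 2696031.

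The 6 brightest members were all lower in CKO, as were 93.9% of measured members and 60.7% of all measured genes. Rps18, a protein of the small subunit head, read 219898 units in CKO and 302487 in wild type (-0.47). Rpl41, the smallest ribosomal protein, read 233564 and 264367 (-0.19). Rps23, at the decoding centre, read 162447 and 185482 (-0.20). These 3 already span the range of the 6. Rplp1 of the stalk read 143975 and 163892 (-0.20). Rps28, near the exit of the messenger RNA channel, read 124727 and 169999 (-0.46). Rpl7a, a large subunit protein, read 129596 and 161325 (-0.33). The 6 differences ranged from -0.47 to -0.19. A distance between 2 genes carries the error of both, 0.29 for the paralogue pairs below, and these 6 lay no farther apart than that.

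The stalk of the large subunit, which recruits elongation factors, was read by 4 genes. All were lower in CKO, as were 93.9% of measured members and 60.7% of all measured genes. Rplp2 read 114076 units in CKO and 149624 in wild type (-0.40), and Rpl12, at the base of the stalk, 86298 and 110149 (-0.36). Rplp0, the scaffold of the stalk, read 129853 and 157039 (-0.28), and Rplp1 was the least shifted (-0.20). Another Rplp0 probe was printed 10 times on each array and read 8636 ± 478 units in CKO and 9633 ± 513 in wild type (SD over spots of 1 array). Its difference was -0.17 with an SD of 0.04 over spots, so this small difference was larger than the spread between spots of one array, which does not include the spread between animals or labellings.

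Around the exit of the tunnel through which the new peptide leaves, the 7 genes had a median of -0.37. All were below 0, against 93.9% of measured members and 60.7% of all measured genes. Rpl23a, which together with Rpl35 docks the signal recognition particle, read 55653 units in CKO and 89325 in wild type (-0.69, 1.62-fold lower). Its second probe gave -0.52, and both probes span an exon junction. Rpl39, the small X-linked protein that lines the tunnel, read 57865 and 85365 (-0.57). The others at the exit were nearer to the rest of the members. Rpl35 read 55676 and 72246 (-0.39), Rpl17 41131 and 52630 (-0.37), and Rpl26 65683 and 74437 (-0.19). Rpl31 read 1479 and 1644 (-0.16), and Rpl19 56738 and 58738 (-0.06).

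Along the messenger RNA channel of the small subunit the genes described here were lower in CKO by unequal amounts. Rps14 at the platform read 64872 units in CKO and 93732 in wild type (-0.54), and Rps28 gave -0.46. Rps2 and Rps3, at the channel entry, gave -0.40 and -0.36. Rps26, which contacts messenger RNA upstream of the start codon, read 54082 and 57205 (-0.09), and Rps9 18557 and 19816 (-0.10). Of these, Rps26 and Rps9 were the least shifted.

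Some ribosomal proteins bind Mdm2, the ubiquitin ligase that degrades p53, when ribosome assembly is disturbed. Rpl11 and Rpl5, which do so together with 5S ribosomal RNA, read 100443 units in CKO against 130233 in wild type (-0.38) and 54594 against 66738 (-0.30). A second probe of each, outside these values, gave 0.15. The list median was -0.29. Of the 8 genes in this list 7 were below 0, against 93.9% of measured members and 60.7% of all measured genes. The exception was Rps27l.

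Rps27l is a paralogue of Rps27 and a known p53 target gene. It read 12885 units in CKO and 11129 in wild type, a difference of 0.20 (1.15-fold higher), the highest of all measured members and about the size of its error. Its parent Rps27 read 63342 and 73867 (-0.23). The only Rps27 probe has its listed position on chromosome 9, while the gene lies on chromosome 3. The distance between paralogue and parent was 0.43, with an error of 0.29, and it rests on that probe. Of the 461 other bright genes 92.8% lay below Rps27l, so a value of this size was not unusual at this signal. Relative to the median of all genes Rps27l was higher under each of the settings tried, by 0.23 to 0.47, but with spike-in scaling its own difference was -0.05.

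The opposite end was held by Rpl22l1, the paralogue of Rpl22, an RNA-binding protein known to repress Rpl22l1 expression. Rpl22l1 read 16638 units in CKO and 28268 in wild type, a difference of -0.77 (1.71-fold lower). This was the lowest of all measured members, and 5.21% of the 461 other bright genes lay below it. A second, dim Rpl22l1 probe was well above background in CKO alone (27.3 units, against 10.5 in wild type). It read the other way (1.37). Rpl22 read 14586 and 15003 with its brightest probe (-0.05), but 2159 and 3335 with its second probe (-0.64), the widest disagreement between measured probes of any member (0.59). The distance between Rpl22l1 and Rpl22 was -0.72 with the brightest probes, and it rests on which Rpl22 probe is read. Relative to the median of all genes Rpl22l1 was lower under each of the settings tried, by 0.39 to 0.74.

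The probes behind these values are shown because paralogues can share sequence. No brightest probes of different members had a run of more than 12 bases in common. The probe sequences, as in the scanner files and with mm9 positions from there, are given 5′ to 3′ in lower case.
Rps27l: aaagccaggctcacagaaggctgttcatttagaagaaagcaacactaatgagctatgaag
Rpl22l1: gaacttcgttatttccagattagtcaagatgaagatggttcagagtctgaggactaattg
Rpl22: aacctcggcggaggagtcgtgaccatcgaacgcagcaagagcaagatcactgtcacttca
The Rps27l probe lies at chr9:66795486-66797176 on the plus strand and spans an exon junction. The Rpl22l1 probe lies at chr3:28706197-28706256 and the brightest Rpl22 probe at chr4:151704158-151704217, both on the plus strand.

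The other paralogues divided in the same way into values near their parent and values away from it. Rps4l, listed on the array as Rps4y2, read 2290 ± 55.4 units in CKO and 3283 ± 73.1 in wild type (SD over 8 spots of 1 array), a difference of -0.53, beside -0.42 for its X-linked parent Rps4x (37837 and 50440). Rpl36al read 10313 and 11077 (-0.11), beside -0.08 for Rpl36a (42713 and 44947). Both pairs differed by less than their error of 0.29. Rpl7l1, which has roles in assembly of the large subunit, read 447 and 409 (0.12), with a second probe at -0.15, while Rpl7 read 86285 and 121062 (-0.50). That pair lay 0.62 apart with the brightest probes. Rpl3l, a form of striated muscle, was not well above background on either array (3.45 and 3.39 units).

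Rpl39l, a retrogene of Rpl39 known from testis, was the only member well above background on 1 array alone. Its brighter probe read 95.3 units in wild type and 4.13 in CKO, so it was at least 5.81-fold lower in CKO, taking the lowest signal well above background there as the bound. Its second probe was not well above background on either array (7.11 units in CKO and 3.89 in wild type). With 1 spot for each probe, the 2 probes disagreed on whether the gene was detected at all.

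Of the members that lay lowest besides Rpl22l1 and Rpl23a, Rps15a, a small subunit protein, passed 1.5-fold. It read 16879 units in CKO and 25303 in wild type (-0.59, 1.51-fold lower), with 1 measured probe. Rpl32 read 61805 and 88657 (-0.53), and Rpl30 22274 and 31915 (-0.53). At the other end, Rps6, the substrate of the S6 kinases, read 13078 and 12277 units (0.08). Rpl13a, which also serves in translational silencing after interferon, read 31556 and 30773 (0.03), and Rpl4 4023 and 3946 (0.02). Rpl10, which joins the large subunit late, read 33963 and 35140 (-0.06). These 4 differences were smaller than their error, and with normexp background correction that of Rps6 was -0.01.

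Mutations of ribosomal protein genes cause Diamond-Blackfan anaemia, and the 19 such genes measured here had a median of -0.31. All were below 0, against 93.9% of measured members and 60.7% of all measured genes. Rps19, the gene most often mutated, read 61448 units in CKO and 85601 in wild type (-0.49), and Rpl35a 39668 and 52330 (-0.41). Rpl18 read 21223 and 29821 (-0.50). Rps24 read 52789 and 61596 (-0.23), and Rps10 27099 and 33423 (-0.31). Of the 19, 18 lay below the median of all genes, against 66 of all 82 members, and Rps26 (-0.09) was the exception.

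Genes with known mouse mutants read like the rest. Rpl38, mutated in Tail-short, read 116182 units in CKO and 140698 in wild type (-0.29). Rpl24, mutated in Belly spot and tail, read 14818 and 18570 (-0.34). Rps20 and Rps19, whose alleles give dark skin, gave -0.30 and -0.49. Of the 9 genes in this list, 8 were below 0, against 93.9% of measured members and 60.7% of all measured genes. The median was -0.30, the same as for all members. The 4 X-linked members had a median of -0.25, with Rpl39 (-0.57) and Rps4x (-0.42) at one side and Rpl36a (-0.08) and Rpl10 (-0.06) at the other.

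Where a gene had more than 1 measured probe, the further probes mostly read the same sign. There were 48 such probes for 38 members. Their median was -0.23, and 40 were below 0. The 35 with a signal of 1000 units or more had a median of -0.26, with 32 below 0, while the 13 dimmer ones had a median of -0.06, with 8 below 0, and ran from -0.81 (Rps20) to 0.36 (Rps9). The SD between probes of a gene was 0.19 in the members and 0.36 in all 4848 genes with more than 1 measured probe. The 27 members whose brightest probe spans an exon junction had a median of -0.37 and the other 55 one of -0.29. The brightest probes of Rps27 and Rps29 are placed by the file on chromosomes 9 and 2 while the genes lie on 3 and 12, and without them the median was -0.31.

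**Figure D3:**
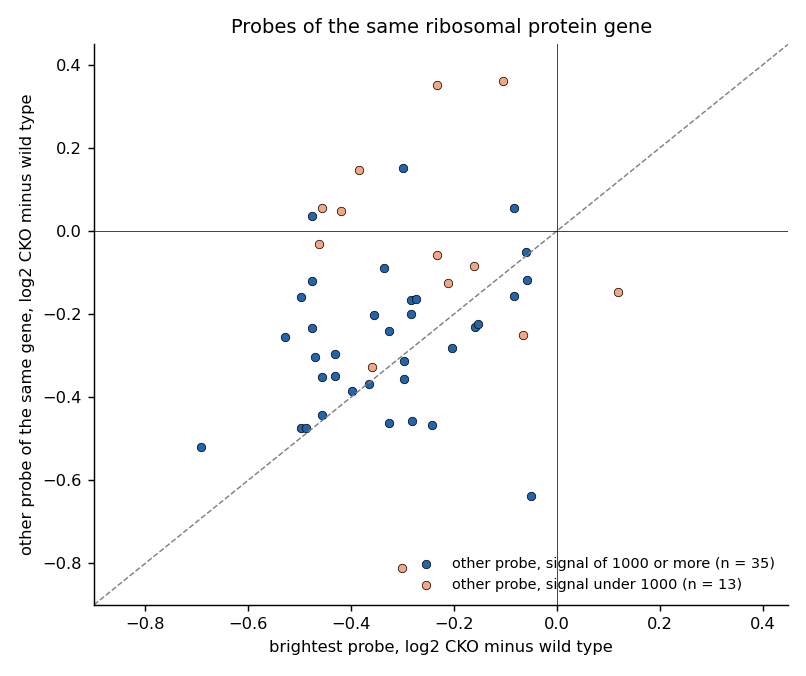
Log2 difference of each further measured probe of a ribosomal protein gene against that of the gene's brightest probe, with probes under 1000 units in a separate colour and the line of equality dashed. Of the 48 points 40 lie below 0 on the vertical axis, and the points above it include 5 of the 13 dim probes.

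Other parts of translation were read from lists of related genes. Rack1 and Fau, ribosome genes outside the naming rule, read like the members. Rack1, a scaffold on the small subunit, read 107237 units in CKO and 123826 in wild type (-0.22). Fau, which encodes a ubiquitin-like fusion with Rps30, read 122033 and 149400 (-0.30). Both were lower in CKO.

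The list of 8 elongation factors includes Eef1e1, which is not itself one. Its 6 measured genes had a median of -0.33, with 5 below 0, against 60.7% of all measured genes. The median without Eef1e1 was not computed. Eef1a1 was at -0.16 and Eef1b2 at -0.22. Eef1g, a subunit of the exchange factor complex, read 36217 and 53645 (-0.58), and Eef1d of the same complex 22802 and 30676 (-0.44). Eef1e1, a scaffold of tRNA synthetases, read 494 and 721 (-0.56), while Eef2, the translocase, was at 0.16. The 21 other genes with TOP messenger RNAs, of which 12 also stand in the lists of ribosome parts, elongation and initiation factors, had a median of -0.30. Among them were Vim (25801 and 39693, -0.63), an intermediate filament protein, and Pabpc1 (71759 and 100644, -0.50), the poly(A)-binding protein. Nap1l1 (0.28), a histone chaperone, and the small nucleolar host gene Snhg1 (0.33) were higher. Of the 21, 18 were below 0, against 60.7% of all measured genes.

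In 3 further lists the medians were nearer to that of all genes (-0.12). The 38 initiation factors had a median of -0.17, with Eif4g3, a scaffold of the cap-binding complex, at 1986 units in CKO and 3987 in wild type (-1.02). Eif4a2, a helicase, was at -0.73, Eif4e, the cap-binding protein, at -0.59, and Eif4b at 0.33. The 75 mitochondrial ribosomal protein genes had a median of -0.18. They ran from -0.72 (Mrpl52) to 0.60 (Mrpl3), and their SD of 0.26 was wider than the 0.18 of the cytosolic genes. They were mostly dimmer, with a summed signal in CKO of 240568 units against 4803712 for the cytosolic genes. The 2 SDs were not compared at like signal. The 13 measured mTOR and Myc genes had a median of -0.20, with the S6 kinase Rps6kb1 at 190 and 282 units (-0.57).

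Genes that build ribosomes had medians nearer to 0, at lower signal than most members. The 50 measured ribosome biogenesis genes had a median of -0.02, 0.10 above that of all genes, and 14 RNA polymerase I genes also had one of -0.02. These medians stayed above that of all genes under each of the settings tried (0.02 to 0.10 and 0.0025 to 0.12). Several lists with lower medians crossed that of all genes. Relative to it, the elongation factor list, with Eef1e1 in it, ran from -0.26 to 0.027 and other TOP genes from -0.27 to 0.020. The stalk ran from -0.29 to 0.011, the tunnel exit from -0.33 to 0.00095 and the Diamond-Blackfan genes from -0.28 to 0.011. The messenger RNA channel genes stayed below it (-0.37 to -0.024). Measured genes below the signal of most members (13677 genes under the level of 10735 units that are no member) had a median of -0.11. The difference between the biogenesis and polymerase I lists and the members was not tested at like signal. Tsr2, the chaperone that delivers Rps26 to the small subunit, read 151 units in CKO and 378 in wild type (-1.34), whereas Rps26 was at -0.09. Bccip, a partner of Rpl23 in assembly, read 2049 and 3828 (-0.91), and Rpl23 gave -0.28. Rrp12, a factor of subunit export, read 46.2 and 22.6 (1.02), close to the detection limit of the arrays (16.5 units in CKO and 16.6 in wild type). Taf1b, a part of the polymerase I initiation factor, was likewise dim at 45.4 and 24.0 (0.91).

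**Figure D4:**
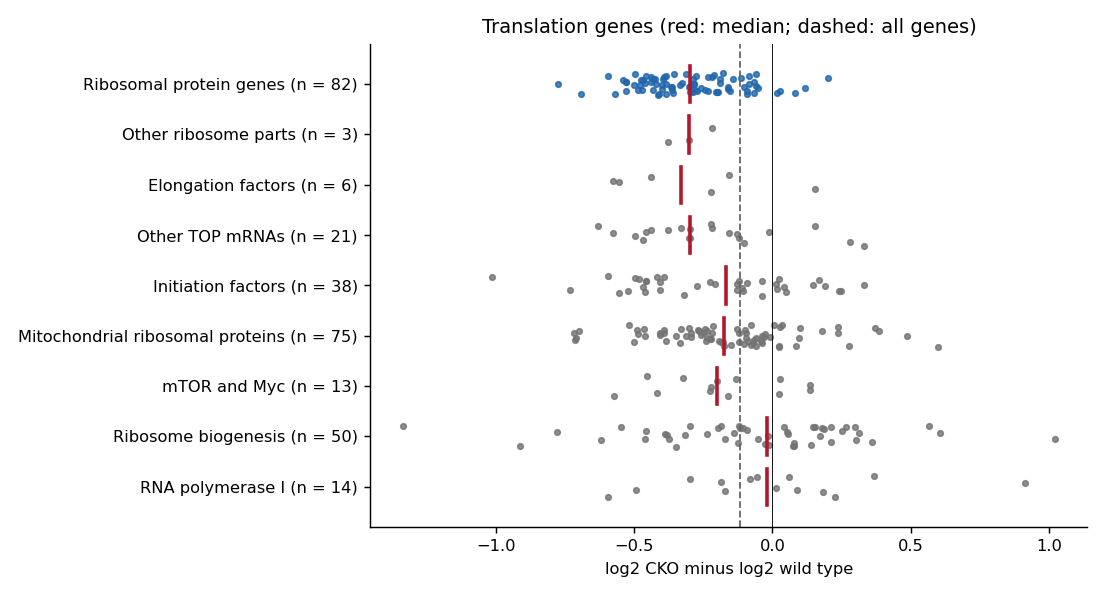
Log2 difference between CKO and wild type of each measured gene (points) in the ribosomal protein genes and in lists of other translation genes, with the median of each list as a red bar, 0 as a solid line and the median of all measured genes (-0.12) dashed. The 82 ribosomal protein genes have a median of -0.30 and lie closer together than the 75 mitochondrial ribosomal protein genes, whose median is -0.18. The mitochondrial genes are mostly dimmer, and the spreads were not compared at like signal.

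Promoter sequence was examined because the TOP tract begins at the transcription start. RefSeq windows from 250 bases before to 50 bases after the start (GRCm38.p6) matched 63 of the 84 members. A run of 8 or more C or T letters in the transcribed strand within 30 bases of the start was found in 35 of the 63 (55.6%) and in 25.8% of all 27025 genes. The letters CCGGAA, on either strand, stood in 35 (55.6%) against 16.7% of all genes, and CTTTCC, in the transcribed strand, in 26 (41.3%) against 16.0%. GGGCGG, on either strand, stood in 39 (61.9%) against 38.2%, AAGATGGC in 6 (9.52%) against 3.19%, CACGTG in 6 (9.52%) against 8.09%, and TATAAA, in the transcribed strand, in 6 (9.52%) against 9.77%. A C or T run can contain CTTTCC, so those counts overlap.

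Members with and without the C or T run, or CCGGAA, had similar medians, and the other letters were not compared in this way. The 34 measured members with the C or T run had a median difference of -0.29 and the 27 without it -0.26. For CCGGAA the medians were -0.28 for the 34 with it and -0.28 for the 27 without. The windows of some of the lowest and highest members show this: 30 bases before to 20 bases after the RefSeq start, with the longest C or T run in capitals.
Rpl22l1: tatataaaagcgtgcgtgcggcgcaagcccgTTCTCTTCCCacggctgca
Rps15a: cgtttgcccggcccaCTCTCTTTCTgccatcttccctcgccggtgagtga
Rpl39: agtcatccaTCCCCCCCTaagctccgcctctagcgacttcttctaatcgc
Rpl18: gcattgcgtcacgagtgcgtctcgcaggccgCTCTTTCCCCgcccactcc
Rpl4: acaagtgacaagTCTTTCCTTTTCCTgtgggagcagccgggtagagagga
Rpl13a: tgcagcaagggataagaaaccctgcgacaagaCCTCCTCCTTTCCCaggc
Rps6: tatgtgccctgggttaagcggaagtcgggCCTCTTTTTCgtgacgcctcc
Rpl7l1: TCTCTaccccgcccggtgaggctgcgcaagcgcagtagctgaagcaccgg
They lie at chr3:28805478-28805527 (plus strand), chr7:118116128-118116177 (minus), chrX:37085203-37085252 (minus), chr7:45718041-45718090 (plus), chr9:64173357-64173406 (plus), chr7:45128726-45128775 (minus), chr4:86857348-86857397 (minus) and chr17:46782637-46782686 (minus). Long runs occur at both ends of the order: Rpl22l1 and Rpl18, among the lowest, have 10 letters, and Rpl4 and Rpl13a, among the highest, 14. Rpl7l1, the dimmest measured member, has no run longer than 5 within 30 bases of the start. That run begins at the edge of the searched stretch and may extend beyond it.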

How the data were processed

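The authors deposited 1 scanner file per array, with spot intensity on a linear scale from Agilent Feature Extraction (10.7.3.1, protocol GE1_107_Sep09, array design 014868, per the file headers; 10.7 per the submitters' processing notes). The processed intensity was already background-corrected, and probe positions are mm9. A log2 value table, deposited by the authors with no stated scaling, served only for comparison. Processed signals were log2-transformed and each array's 75th percentile over non-control spots was subtracted (203 units in CKO, 201 in wild type), without control and outlier spots and with repeated spots averaged. Detection required the scanner software's mark on more than 50% of the spots. Accessions and symbols were updated through a RefSeq table (GRCm38.p6), with 27641 probes matched on accession, 5508 on symbol and 460 on a former symbol, and 143 member probes kept their file name. A moved value differed by more than the error model, 0.20. The number of arrays limits the precision.

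Named genes were Msx2, members at 1.5-fold or among the 8 farthest in each direction from the median of all genes, the 6 brightest, paralogues and parents, members not measured on both arrays, members of the role lists, and the 4 farthest of each other list, some of which are not reported here. The members and lists were chosen with earlier results of these data known. The procedure was tested on simulated data with planted changes far larger than the members' median difference, so that test does not bear on the small shift reported here. Python 3.11.15, numpy 2.4.6, pandas 2.3.3, scipy 1.17.1, matplotlib 3.10.9 and, for normexp (offset 50), limma 3.58.1 in R 4.3.3 were used.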

Additional observations from a re-analysis of the deposited data

How the results depend on the processing

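The small shift of the ribosomal protein genes depended on how the arrays were scaled, and with 1 array per genotype no setting can show the spread between animals. After quantile normalization the median difference was -0.039 and 0.0098 relative to all genes, with 43 members above their median; the large subunit was at -0.056 and the small at -0.0026. Centring along signal gave -0.0043, 40 members above, -0.044 and 0.025. The authors' deposited value table gave -0.046, 0.0045 relative to all genes, 42 members above, -0.073 and -0.036. For these settings the cause was not tested. Alternatives chosen after seeing the data were centring on genes that are no ribosomal protein gene (-0.010, 40 members above, -0.043 and 0.021), scaling to spike-ins (-0.55, 1 member at least 2-fold lower, -0.58 and -0.55) and leaving out probes on another chromosome. Without a detection filter, 1 member was at least 2-fold lower and 6 exceeded the all-gene median, and when detection on a single array sufficed 1 was at least 2-fold lower. With 1.5-fold in place of 2-fold, 3 were lower. Median scaling moved the median of all genes by -0.12, and the share of higher genes among those at least 2-fold different was 35.8%, against 50.8% in the reported values, 61.1% after centring and 22.8% with spike-ins. Of the other values, for lists and single genes, 1339 moved by less than the error model and 146 by more.

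No paired analysis was possible because each genotype had 1 array, and leaving out an array was impossible for the same reason. Depth is limited by signal over background: members under 1000 units and Rpl39l rest on dim or single spots.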
